A study of Mus musculus with 20 samples.

Results

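The 36 genes described here carry the response to low oxygen and the breakdown of glucose: a pair of hypoxia-inducible factor subunits (Epas1 and Hif1a), 2 oxygen-sensing hydroxylases (Egln1 and Egln3), 2 glucose transporters, the enzymes of glycolysis and its regulators, and other genes that the factors are known to switch on, such as Bnip3 and Vegfa. They were taken by gene symbol from the annotation of the array, and each gene was read through the probe set whose mean over the 20 arrays was highest. Of the 36 genes, 32 had a probe set that names no other gene, out of 18193 such genes on the array. For 31 of them the highest group mean reached the filter level of 3.95 (log2), as it did for 14010 genes in all. Eno2, the neuronal enolase, stayed below that level, with group means of 1.53 to 3.62, and was not tested. Gpi1 and Eno1 had no probe set under these symbols, and Gapdh and Bnip3l had only probe sets shared with other genes, so these 4 genes were not analysed here.

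RNA came from male mouse embryonic stem cells of mixed C57BL/6;129 background, on Affymetrix 3' arrays. All 5 lines carried reporters for Blimp1 (mVenus) and stella (ECFP) and the doxycycline-dependent activator rtTA at Rosa26. BP14A carried in addition tetO-driven transgenes for Blimp1 (tagged Avi), Prdm14 (tagged 3xFLAG) and Tfap2c (tagged V5), B that for Blimp1 alone, P14 that for Prdm14 alone and A that for Tfap2c alone, each on a piggyBac vector with beta geo, while the Parental line carried none of them. Each line was measured on day 1, as aggregates of 2000 cells per well kept for 24 h in GK15 medium with 1.5 μg/ml doxycycline, and before aggregation, as epiblast-like cells (EpiLCs) after 36 h of differentiation. The design describes 2 biological duplicates for each of the 10 groups; their number limits the precision. Every line is 1 clone, and the effects of a factor and of its clone cannot be told apart. All aggregates had doxycycline, so its effect cannot be told apart from those of aggregation, medium and time. In these bulk samples, fewer cells that express a gene and less RNA per cell also cannot be told apart.

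When oxygen is plentiful, the hydroxylases of the Egln family mark the alpha subunits HIF-1α (from Hif1a) and HIF-2α (from Epas1) for destruction. When oxygen is scarce, the subunits last, pair with Arnt and bind short DNA elements whose core is ACGTG or GCGTG, and so raise genes for glucose uptake, glycolysis, lactate production, removal of mitochondria and vessel growth. Primed pluripotent cells such as the epiblast are known for high glycolysis, and mouse primordial germ cells for a greater reliance on mitochondrial respiration. The arrays measured RNA, not protein, oxygen or metabolic flux.

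Promoter windows are shown for the 5 genes that were called lower on day 1 in all 5 lines and for Hk1, Hk2 and Ldha, 3 of the enzymes that differed between lines on day 1. The sequences are RefSeq's, on build GRCm38.p6, and run 5′ to 3′ on the strand of the gene from 250 bases before to 50 bases after the start (the first listed start of each gene). Capitals mark each match to ACGTG or GCGTG on either strand, so that CACGT and CACGC are their reverse forms. The palindrome CACGTG holds ACGTG on both strands and is also the E-box that many helix-loop-helix factors bind. The genes are Bnip3 at chr7:138909457-138909756 (minus strand), Egln3 at chr12:54203825-54204124 (minus strand), Ddit4 at chr10:59951721-59952020 (minus strand), Pfkl at chr10:78009758-78010057 (minus strand), Vegfa at chr17:46032328-46032627 (minus strand), Hk1 at chr10:62379859-62380158 (minus strand), Hk2 at chr6:82774405-82774704 (minus strand) and Ldha at chr7:46845554-46845853 (plus strand).
Bnip3: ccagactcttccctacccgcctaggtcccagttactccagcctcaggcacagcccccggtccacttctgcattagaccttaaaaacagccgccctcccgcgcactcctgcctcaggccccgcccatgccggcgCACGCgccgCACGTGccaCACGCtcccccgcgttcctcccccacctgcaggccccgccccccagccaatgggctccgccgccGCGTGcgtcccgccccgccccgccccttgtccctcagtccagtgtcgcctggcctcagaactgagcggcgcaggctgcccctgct
Egln3: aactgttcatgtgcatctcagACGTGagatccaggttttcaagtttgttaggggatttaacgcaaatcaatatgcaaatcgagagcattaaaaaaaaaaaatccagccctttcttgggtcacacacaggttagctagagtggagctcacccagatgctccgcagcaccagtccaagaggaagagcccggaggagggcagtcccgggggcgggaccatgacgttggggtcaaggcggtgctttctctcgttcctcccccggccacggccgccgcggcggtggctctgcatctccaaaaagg
Ddit4: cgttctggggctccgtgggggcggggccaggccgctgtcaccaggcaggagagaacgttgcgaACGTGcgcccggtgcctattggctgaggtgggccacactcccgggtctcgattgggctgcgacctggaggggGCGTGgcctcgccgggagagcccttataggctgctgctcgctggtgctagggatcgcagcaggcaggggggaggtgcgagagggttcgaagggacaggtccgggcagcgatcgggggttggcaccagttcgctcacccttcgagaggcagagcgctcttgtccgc
Pfkl: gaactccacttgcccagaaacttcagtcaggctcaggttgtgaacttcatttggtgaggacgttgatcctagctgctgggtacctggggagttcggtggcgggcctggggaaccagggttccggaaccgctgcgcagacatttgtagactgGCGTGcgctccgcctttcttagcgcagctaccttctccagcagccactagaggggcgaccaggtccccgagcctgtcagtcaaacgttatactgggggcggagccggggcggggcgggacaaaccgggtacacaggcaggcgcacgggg
Vegfa: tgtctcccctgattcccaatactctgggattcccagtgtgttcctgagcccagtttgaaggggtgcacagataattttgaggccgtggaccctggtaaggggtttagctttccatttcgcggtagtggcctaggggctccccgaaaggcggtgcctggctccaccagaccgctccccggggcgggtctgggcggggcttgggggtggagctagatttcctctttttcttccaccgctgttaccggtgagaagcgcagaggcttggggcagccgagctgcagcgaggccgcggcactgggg
Hk1: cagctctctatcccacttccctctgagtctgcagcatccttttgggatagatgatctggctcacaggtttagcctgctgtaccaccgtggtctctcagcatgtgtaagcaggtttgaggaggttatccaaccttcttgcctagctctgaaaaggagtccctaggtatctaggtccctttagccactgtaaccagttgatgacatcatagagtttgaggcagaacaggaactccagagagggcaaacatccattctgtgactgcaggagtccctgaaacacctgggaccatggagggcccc
Hk2: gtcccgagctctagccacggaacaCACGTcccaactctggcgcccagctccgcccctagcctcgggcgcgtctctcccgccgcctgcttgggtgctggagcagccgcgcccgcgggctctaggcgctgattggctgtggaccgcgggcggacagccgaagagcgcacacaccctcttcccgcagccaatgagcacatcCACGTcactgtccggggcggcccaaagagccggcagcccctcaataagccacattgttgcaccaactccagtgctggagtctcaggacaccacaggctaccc
Ldha: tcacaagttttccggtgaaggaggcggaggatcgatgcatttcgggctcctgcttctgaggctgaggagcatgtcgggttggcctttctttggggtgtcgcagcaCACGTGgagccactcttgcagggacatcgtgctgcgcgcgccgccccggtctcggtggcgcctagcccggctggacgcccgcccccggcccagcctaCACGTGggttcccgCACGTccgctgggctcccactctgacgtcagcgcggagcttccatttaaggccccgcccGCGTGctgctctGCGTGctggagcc
The core was found 7 times in the window of Ldha, 5 times in that of Bnip3, 2 times each in those of Hk2 and Ddit4, 1 time each in those of Egln3 and Pfkl, and not in those of Vegfa and Hk1. Vegfa and Hk1 have a second listed window each, not shown, with 2 and 5 matches. Windows were at hand for 28 of the 31 tested genes, all but Epas1, Slc2a3 and Ndrg1, and 33 of their 42 windows (78.6%) held the core, against 14380 of all 32851 windows of this length (43.8%). Some genes have several windows, and overlapping windows of Aldoa and of Pfkm hold the same match, so the windows are not independent. Their median GC content was 62.8%, against 52.7% over all windows, and the core itself is rich in C and G; the part of base composition in the higher share was not tested. A match is a stretch of letters and not a measured binding site.

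The arrays of day-1 aggregates and EpiLCs differed in a control signal. The 18S ribosomal control stood at group means of 11.98 to 12.03 on day 1 and 10.86 to 11.36 in EpiLCs (log2), and the 3'-to-5' difference of the Gapdh control at -0.17 to -0.14 on day 1 and -0.14 to -0.12 in EpiLCs. The 3'-to-5' difference of the actin control overlapped between stages, at 0.32 to 0.45 on day 1 and 0.345 to 0.39 in EpiLCs. The part of the control signals in the stage changes was not tested. All 6 EpiLC markers of the fixed list were above the filter level in every group. The log2 of their summed signal was 13.17 to 13.19 in BP14A, 14.01 to 14.07 in B, 13.51 to 13.55 in P14, 14.44 to 14.48 in A and 14.45 to 14.51 in Parental on day 1, and 14.53 to 14.68 in EpiLCs of the 5 lines. The sum over 5 measured early germ cell markers, which include the transgene factors Prdm1 (Blimp1) and Tfap2c, ran on day 1 at 13.25 to 13.31 in BP14A, 11.11 to 11.52 in B, 12.37 to 12.53 in P14, 8.91 to 9.17 in A and 9.11 to 9.27 in Parental. Between 4 and 5 of the 8 fibroblast or feeder markers reached the filter level, with sums of 7.49 to 9.02 over all arrays, lowest in BP14A on day 1. All lines are labelled male, but the summed signal of 3 Y-linked genes was 4.39 to 4.63 in B, 5.37 to 5.96 in P14 and 8.74 to 9.27 in BP14A and A, against 9.92 to 10.13 in Parental. The part of these cell state and chromosome differences in the comparisons below was not tested.

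On day 1 most of the 31 genes had less RNA than in EpiLCs, in every line. A gene was called changed when its Benjamini-Hochberg adjusted p over 14010 genes was under 0.05 in limma and its log2 difference was at least 1 in size, and "rose" and "fell" are used only of such calls. On day 1 against EpiLCs, 11 genes fell and 3 rose in BP14A, where 4.88% of all genes fell and 5.73% rose. In B 9 fell and 1 rose (3.94% and 5.78% of all genes), in P14 11 fell and 3 rose (3.73% and 4.33%), in A 8 fell and 1 rose (2.55% and 3.58%), and in Parental 12 fell and 1 rose (2.62% and 3.97%). By adjusted p alone, with no size limit, 28 of the 31 genes differed in BP14A, 25 in B, 28 in P14, 22 in A and 25 in Parental, where 41%, 42.1%, 35%, 32.8% and 34.5% of all genes did. The median log2 difference of the 31 genes lay between -0.76 in B and -0.56 in A, against 0.02 to 0.06 over all genes. The difference was below 0 in all 5 lines for 18 genes, above 0 in all 5 for Hif1a, Slc2a3 and Ldhb, and of mixed sign for 10.

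**Figure D1:**
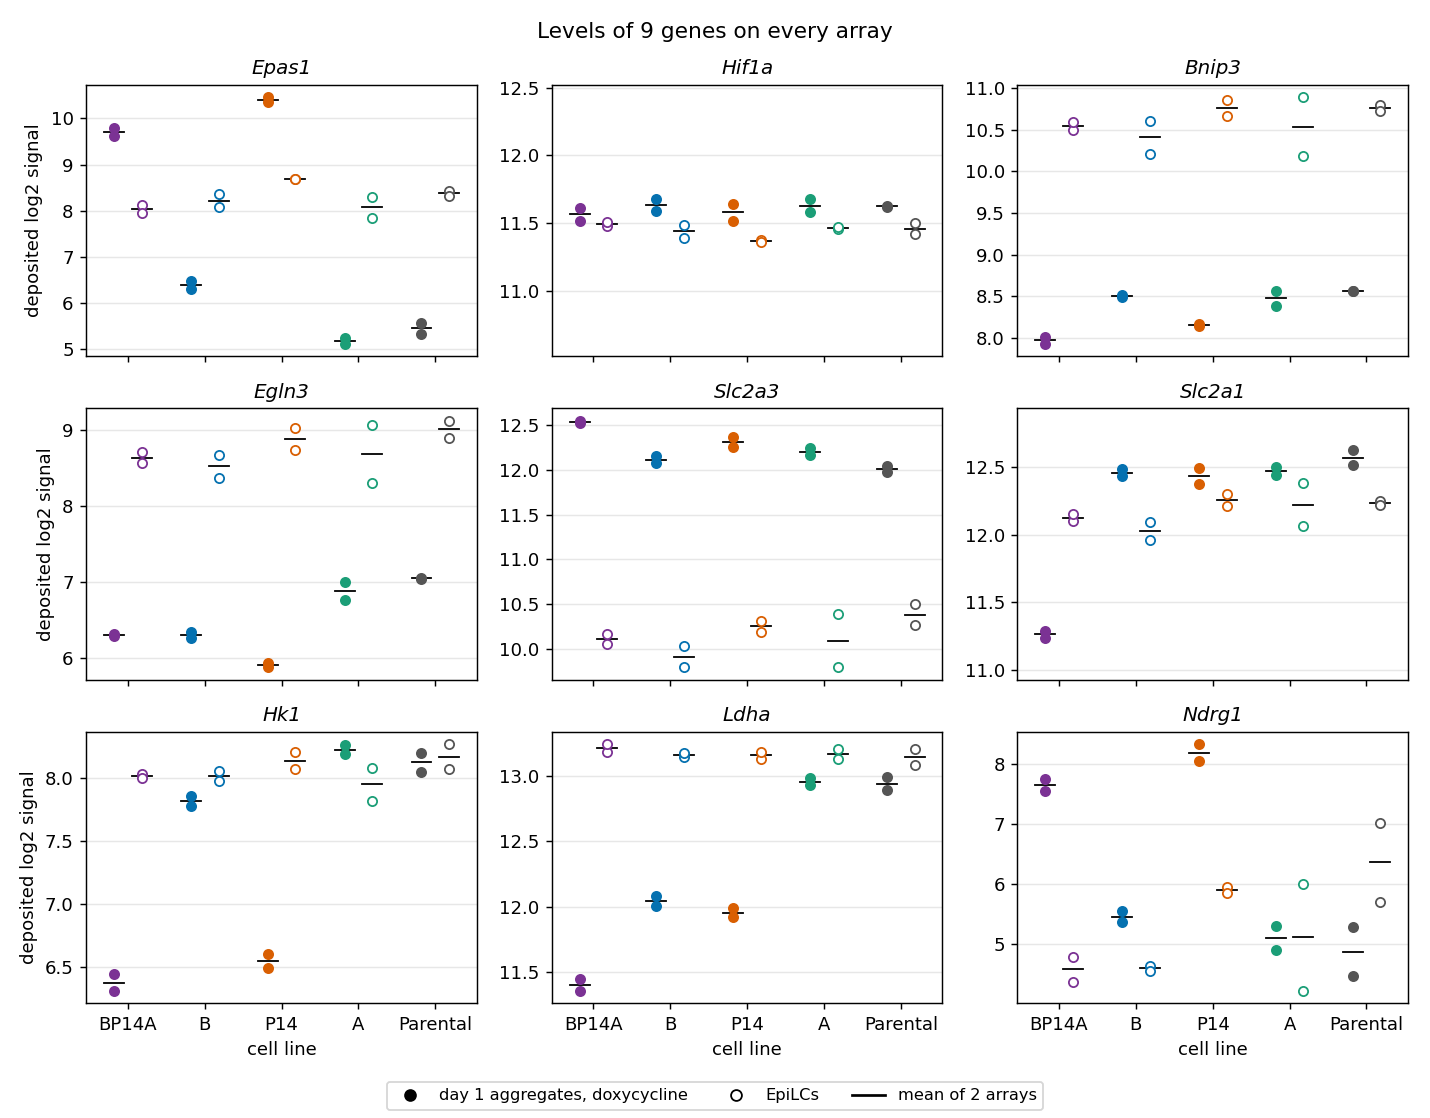
Deposited log2 value of 9 genes on every array, by line (BP14A, B, P14, A, Parental), with day 1 filled and EpiLC open; the bar is the mean of 2 arrays. Epas1 on day 1 lies between 9.62 and 10.46 in BP14A and P14 and between 5.11 and 6.48 in the other lines, while Bnip3 and Egln3 are lower on day 1 than in EpiLCs of every line.

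Of the factor subunits, Epas1 changed in opposite directions in different lines. On day 1 Epas1 read 9.79 and 9.62 in BP14A, against 8.13 and 7.94 in BP14A EpiLCs, and 10.36 and 10.46 in P14, against 8.69 and 8.69 in P14 EpiLCs. It read 6.31 and 6.48 in B, against 8.07 and 8.36 in B EpiLCs, 5.23 and 5.11 in A, against 7.84 and 8.30 in A EpiLCs, and 5.56 and 5.33 in Parental, against 8.43 and 8.32 in Parental EpiLCs. Day-1 and EpiLC arrays did not overlap in any line: day 1 was the higher stage in BP14A and P14 and the lower one in B, A and Parental. Epas1 thus rose by 1.67 ± 0.15 in BP14A (limma SE, adjusted p = 2.51e-06) and by 1.72 ± 0.15 in P14 (adjusted p = 3e-06). It fell in B (-1.82 ± 0.15, adjusted p = 1.35e-06), in A (-2.90 ± 0.15, adjusted p = 8.33e-08) and in Parental (-2.93 ± 0.15, adjusted p = 8.39e-08). A second Epas1 probe set gave the same signs, at 0.84 in BP14A, -3.47 in B, 0.66 in P14, -3.29 in A and -2.38 in Parental, though on day 1 it lay below the filter level in B, A and Parental, with group means of 1.14, 1.45 and 2.73. Hif1a RNA was abundant and nearly level, with values of 11.52 to 11.68 on day 1 and 11.36 to 11.51 in EpiLCs, and differences of 0.07 to 0.21 that were not called in any line.

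Of the oxygen sensors, Egln3 fell in all 5 lines and Egln1 was not called. Egln3, the hydroxylase that the factors themselves are known to induce, read on day 1 6.29 and 6.32 in BP14A, 6.27 and 6.34 in B, 5.93 and 5.88 in P14, 6.77 and 7.00 in A and 7.04 and 7.06 in Parental. In EpiLCs Egln3 read 8.30 to 9.12 over the 10 arrays, so that no day-1 array reached any EpiLC array. Egln3 fell, with log2 differences from -1.80 ± 0.20 in A (adjusted p = 2.85e-05) to -2.97 ± 0.20 in P14 (adjusted p = 3.63e-07). Egln1, the main hydroxylase in most cells, had differences from -0.64 in P14 to 0.17 in A.

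Bnip3, a mitophagy receptor of the outer mitochondrial membrane whose window above holds 5 core matches over both strands, and Ddit4, an inhibitor of mTORC1 signalling, also fell in all 5 lines. Bnip3 read 7.93 and 8.01 in BP14A, 8.52 and 8.49 in B, 8.17 and 8.14 in P14, 8.39 and 8.56 in A and 8.57 and 8.56 in Parental on day 1, against 10.18 to 10.89 over the 10 EpiLC arrays. The stages were well apart, and Bnip3 fell, with log2 differences from -1.91 ± 0.18 in B (adjusted p = 5.32e-06) to -2.61 ± 0.18 in P14 (adjusted p = 5.46e-07). Ddit4 read 9.19 and 9.11 in BP14A, 10.26 and 10.45 in B, 8.90 and 8.57 in P14, 10.08 and 10.04 in A and 10.18 and 9.87 in Parental on day 1, against 11.21 to 12.15 in EpiLCs. It fell, with log2 differences from -1.16 ± 0.21 in B (adjusted p = 0.000657) to -3.36 ± 0.21 in P14 (adjusted p = 1.95e-07), with no overlap between stages.

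Vegfa, the growth factor for blood vessels, fell, with log2 differences from -1.02 ± 0.24 in P14 (adjusted p = 0.0059) to -1.74 ± 0.24 in B (adjusted p = 0.000107). It read 6.02 to 7.56 on the day-1 arrays, against 7.96 to 9.13 on the EpiLC arrays. The call was lost in P14 without P14 day 1 replicate 2 and in BP14A without BP14A EpiLC replicate 1 or BP14A day 1 replicate 2. A second Vegfa probe set differed by only -0.49 in Parental to 0.03 in B, and with the mean of both the call was lost in BP14A, B, P14 and A, at -0.58, -0.85, -0.68 and -0.75. Ankrd37, a small ankyrin-repeat gene, read 4.98 and 5.00 on day 1 in Parental, against 6.57 and 6.59 in Parental EpiLCs, and fell by 1.59 ± 0.13 there (adjusted p = 3.59e-06). In the other lines its difference was -0.98 to -0.76, short of the size limit. P4ha1, a subunit of collagen prolyl hydroxylase, read 5.22 and 5.41 on day 1 in Parental, against 6.19 and 6.65 in EpiLCs, and fell by 1.11 ± 0.24 (adjusted p = 0.00399). That call was lost without Parental EpiLC replicate 2, and with the mean of its 2 probe sets, at -0.73.

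Ndrg1, a stress-induced gene linked to differentiation, moved in opposite directions. It read 7.55 and 7.75 on day 1 in BP14A, against 4.80 and 4.38 in BP14A EpiLCs, and rose by 3.06 ± 0.51 (adjusted p = 4e-04). In P14 it read 8.05 and 8.33 on day 1, against 5.95 and 5.85 in EpiLCs, and rose by 2.29 ± 0.51 (adjusted p = 0.00381). In Parental it read 5.29 and 4.47 on day 1, against 7.02 and 5.71 in EpiLCs, and fell by 1.49 ± 0.51 (adjusted p = 0.0401). EpiLC duplicates of Ndrg1 lay far apart in Parental and in A (4.23 and 6.01), and the fall in Parental was lost without Parental EpiLC replicate 1, at -0.83, or without Parental day 1 replicate 2. That call was also lost with the mean of its probe sets, with no filter, and when only the arrays of this contrast were fitted. It was lost too in a test against a log2 difference of 0.5. In B and A the difference was 0.86 and -0.02 and not called.

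Of the glucose transporters, Slc2a3 (GLUT3, the high-affinity carrier) was the gene that rose in all 5 lines. On day 1 it read 12.55 and 12.52 in BP14A, 12.08 and 12.15 in B, 12.26 and 12.37 in P14, 12.17 and 12.24 in A and 12.04 and 11.98 in Parental, against 9.79 to 10.50 over the EpiLC arrays. Every day-1 array was above every EpiLC array, and the rise ran from 1.63 ± 0.16 in Parental (adjusted p = 9.08e-06) to 2.43 ± 0.16 in BP14A (adjusted p = 1.72e-07). Slc2a1 (GLUT1, the common carrier) was not called in any line. Its difference was -0.86 ± 0.09 in BP14A (adjusted p = 1.37e-05) and 0.18 to 0.43 in the other lines. A second Slc2a1 probe set read 10.51 and 10.44 on day 1 in BP14A, against 11.47 and 11.51 in BP14A EpiLCs. That difference lies just past the size limit.

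Of the hexokinases and phosphofructokinases, Pfkl fell in all 5 lines, Hk2 in 3, Hk1 in 2, Pfkp in 1 and Pfkm in 0. Pfkl, the liver-type phosphofructokinase, read 5.74 and 5.94 in BP14A, 6.69 and 6.88 in B, 6.23 and 6.31 in P14, 7.06 and 7.16 in A and 7.22 and 6.95 in Parental on day 1, against 7.97 to 8.50 in EpiLCs. The stages did not overlap, and Pfkl fell, with log2 differences from -1.07 ± 0.17 in A (adjusted p = 0.000456) to -2.32 ± 0.17 in BP14A (adjusted p = 5.09e-07). The call was lost in A without A EpiLC replicate 2, in Parental without Parental day 1 replicate 2, and in both with the mean of the 3 Pfkl probe sets, at -0.73 in A and -0.89 in Parental. Hk2, the inducible hexokinase, fell in BP14A (-2.24 ± 0.12, adjusted p = 4.54e-08), in B (-1.11 ± 0.12, adjusted p = 1.42e-05) and in P14 (-1.97 ± 0.12, adjusted p = 1.97e-07). In A and Parental its differences of -0.88 and -0.79 passed the p threshold alone, and the call in B was lost without B day 1 replicate 1. In EpiLCs Hk2 read 11.16 to 11.40 and Hk1 7.82 to 8.27 over the 10 arrays. Hk1, the constitutive hexokinase, fell in BP14A (-1.64 ± 0.10, adjusted p = 1.2e-07) and in P14 (-1.60 ± 0.10, adjusted p = 2.4e-07), with -0.20, 0.28 and -0.04 in B, A and Parental. Pfkp, the platelet-type phosphofructokinase, fell in Parental (-1.22 ± 0.15, adjusted p = 8.23e-05), a call lost without Parental EpiLC replicate 1. In the other lines Pfkp was also lower, at -0.75 or below, short of the size limit (limma adjusted p at most 0.00188). Pfkm, the muscle type, differed by 0.23 in BP14A, -0.47 in B, 0.21 in P14, -0.17 in A and -0.34 in Parental.

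Further down the pathway, Ldha, Tpi1 and Aldoc fell in some of the lines. In the lines without a call they were also lower, with limma adjusted p under 0.05, but short of the size limit. The smallest differences were -0.2 for Ldha, -0.555 for Tpi1 and -0.825 for Aldoc. Ldha, which makes lactate from pyruvate and whose window above holds 7 core matches over both strands, read 13.08 to 13.24 over the EpiLC arrays. On day 1 its values, given below with the comparison of lines, were lower on every array. It fell in BP14A (-1.81 ± 0.06, adjusted p = 1.89e-09), in B (-1.11 ± 0.06, adjusted p = 1.03e-07) and in P14 (-1.20 ± 0.06, adjusted p = 7.34e-08), and differed by -0.21 in A and -0.20 in Parental. Tpi1, triosephosphate isomerase, read 10.72 and 10.53 in BP14A and 10.96 and 10.95 in P14 on day 1, against 12.16 to 12.41 in EpiLCs of the 5 lines, and fell in BP14A (-1.59 ± 0.08, adjusted p = 3.85e-08) and in P14 (-1.41 ± 0.08, adjusted p = 1.67e-07). Aldoc, the brain-type aldolase, fell in BP14A, P14 and Parental, with differences from -1.31 to -1.11. The call in Parental was lost without Parental EpiLC replicate 1. Pfkfb3, which makes the activator of phosphofructokinase, fell in BP14A (-1.38 ± 0.16, adjusted p = 2.74e-05) and in A (-1.12 ± 0.16, adjusted p = 0.000238). In the other lines it was also lower, at -0.76 or below, short of the size limit (limma adjusted p at most 0.00246). A second Pfkfb3 probe set read 0.55 in BP14A and -0.14 in A, both calls were lost with the mean of the 2, at -0.42 and -0.63, and that in A also without A EpiLC replicate 2. Abundant enzymes of the pathway were not called in any line, with differences between -0.68 and -0.23 for Pgk1, Pgam1 and Pkm and between -0.87 and -0.61 for Aldoa. Pdk1, a pyruvate dehydrogenase kinase, read 10.24 and 10.15 in BP14A, 9.23 and 9.48 in B, 9.80 and 9.77 in P14, 9.09 and 9.23 in A and 9.56 and 9.39 in Parental on day 1, against 10.84 to 11.43 in EpiLCs. The stages did not overlap, and BP14A kept the highest day-1 values. Pdk1 fell in B (-1.66 ± 0.14, adjusted p = 1.78e-06), in P14 (-1.45 ± 0.14, adjusted p = 7.23e-06), in A (-1.86 ± 0.14, adjusted p = 1.39e-06) and in Parental (-1.80 ± 0.14, adjusted p = 1.92e-06). In BP14A it differed by -0.73 ± 0.14 and missed the size limit. In all 13 genes were called in no line, among them Hif1a and Slc2a1, as well as the consistently lower Aldoa, Pgk1 and Pkm.

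**Figure D2:**
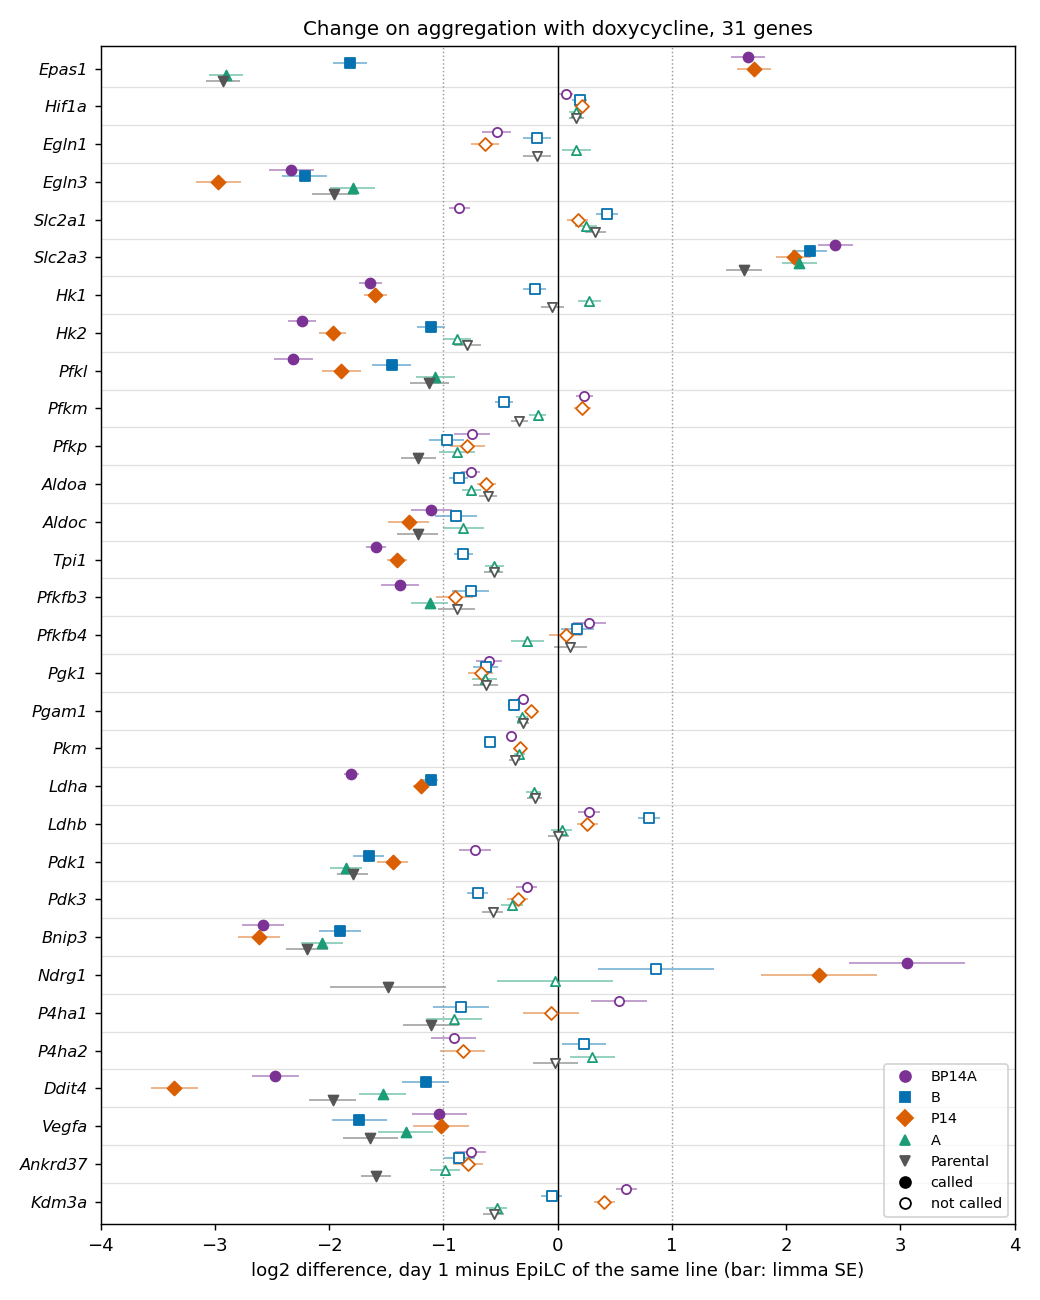
Log2 difference of day 1 minus EpiLC for the 31 tested genes in each of the 5 lines, with bars of 1 limma SE; filled points are called, and dotted lines mark -1 and 1. Egln3, Pfkl, Bnip3, Ddit4 and Vegfa are filled below -1 in all lines, Slc2a3 is filled above 1 in all lines, and Epas1 lies on both sides of 0.

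On day 1 the BP14A and P14 lines differed from the Parental line in some of these genes, with the largest sizes in both for Epas1, Ndrg1 and Hk1, and no gene was called in B or A. In BP14A 4 genes were higher and 7 lower than in Parental, where 2.78% of all genes were higher and 3.85% lower. In P14 2 were higher and 5 lower (2.18% and 3.2% of all genes). In B 0 were called (1.4% of all genes higher and 1.2% lower). In A 0 were called (0.0286% of all genes in either direction). The 4 comparisons share the Parental arrays, so their values are given side by side. By adjusted p alone 19 genes differed in BP14A, 10 in B and 16 in P14 (27.5%, 17.2% and 23.9% of all genes). Over the 31 genes the median difference was -0.03 in BP14A, -0.11 in B, 0.06 in P14 and -0.01 in A. Of the 17 tested genes of glycolysis and glucose transport, 0 were higher and 6 lower in BP14A, and 0 and 2 in P14. Of the other 14, the factor subunits, sensors and other targets, 4 were higher and 1 lower in BP14A, and 2 and 3 in P14.

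The largest difference was that of Epas1, whose day-1 arrays in BP14A and P14, given above, lay far above both Parental arrays (5.56 and 5.33). Epas1 was higher than in Parental by 4.26 ± 0.15 in BP14A (adjusted p = 2.23e-09) and by 4.96 ± 0.15 in P14 (adjusted p = 9.6e-10). A second probe set gave 2.45 and 3.22, against Parental arrays below the filter level (2.93 and 2.52). In B it was 0.95 ± 0.15 (adjusted p = 0.00106), just short of the size limit. On the second probe set B was instead the lower line, with day-1 group means of 1.14 in B and 2.73 in Parental. Both lie below the filter level, so that difference is one between background values. Ndrg1 was higher by 2.77 ± 0.51 in BP14A (adjusted p = 0.00138) and by 3.31 ± 0.51 in P14 (adjusted p = 0.000468), and none of its BP14A or P14 arrays reached down to the Parental values of 5.29 and 4.47. Hif1a differed by no more than 0.06 in size in BP14A and P14.

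Hexokinases were lower in the same lines. On day 1 Hk1 read 6.44 and 6.31 in BP14A and 6.60 and 6.49 in P14, against 7.86 and 7.78 in B, 8.19 and 8.26 in A and 8.20 and 8.05 in Parental. BP14A and P14 thus stood apart from the 3 other lines, by -1.75 ± 0.10 in BP14A (adjusted p = 1.05e-07) and -1.58 ± 0.10 in P14 (adjusted p = 3.83e-07) against Parental. Hk2 read 9.28 and 8.85 in BP14A, 9.97 and 10.21 in B, 9.39 and 9.46 in P14, 10.39 and 10.37 in A and 10.50 and 10.53 in Parental. It was lower, at -1.45 ± 0.12 in BP14A (adjusted p = 2.47e-06) and at -1.09 ± 0.12 in P14 (adjusted p = 3.5e-05), and the B arrays lay between. Pfkm went the other way, at 0.51 ± 0.07 in BP14A (adjusted p = 0.000278) and 0.56 ± 0.07 in P14 (adjusted p = 0.000176), short of the size limit. Hk1 and Hk2 catalyse the first step of glycolysis, the phosphorylation of glucose.

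Ldha and Slc2a1 were lowest in BP14A. Ldha read 11.45 and 11.36 in BP14A, 12.01 and 12.08 in B, 11.92 and 11.99 in P14, 12.93 and 12.98 in A and 12.89 and 12.99 in Parental. It was lower than in Parental, at -1.53 ± 0.06 in BP14A (adjusted p = 7.63e-09), and its differences of -0.89 ± 0.06 in B (adjusted p = 3.49e-06) and -0.98 ± 0.06 in P14 (adjusted p = 4.74e-07) passed the p threshold but not the size limit. In B, P14 and BP14A no array reached an array of A or Parental. Slc2a1 read 11.29 and 11.24 in BP14A, 12.48 and 12.43 in B, 12.37 and 12.49 in P14, 12.50 and 12.44 in A and 12.51 and 12.62 in Parental. BP14A alone stood apart here, lower, at -1.30 ± 0.09 (adjusted p = 7.07e-07).

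The remaining calls against Parental concerned further enzymes and other targets. In BP14A Pfkl was lower, at -1.25 ± 0.17 (adjusted p = 0.000147) and Tpi1 at -1.07 ± 0.08 (adjusted p = 1.45e-06). The call for Tpi1 was lost without BP14A day 1 replicate 2, and that for Pfkl with the mean of its probe sets, at -0.75. In P14 Ddit4 was lower, at -1.29 ± 0.21 (adjusted p = 0.000599) and Egln3 at -1.15 ± 0.20 (adjusted p = 0.00113). P4ha2, the other catalytic subunit of collagen prolyl hydroxylase, read 5.91 and 5.80 in BP14A and 5.86 and 5.84 in P14, against 7.02 and 7.19 in Parental. It was lower, at -1.25 ± 0.20 in BP14A (adjusted p = 0.000428) and at -1.25 ± 0.20 in P14 (adjusted p = 0.000528). P4ha1 went the other way, with 6.56 and 6.73 in BP14A against 5.22 and 5.41 in Parental, higher by 1.33 ± 0.24 (adjusted p = 0.00139), a call lost with the mean of its probe sets, at 0.80. Kdm3a, a histone H3K9 demethylase, read 9.93 and 9.84 in BP14A, against 8.92 and 8.79 in Parental, and was higher by 1.03 ± 0.09 (adjusted p = 4.59e-06). Its call was lost without BP14A day 1 replicate 1 or Parental day 1 replicate 2. In P14 Kdm3a and P4ha1 were at 0.90 ± 0.09 and 0.98 ± 0.24 and missed the size limit.

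For B and A the absence of calls has different footing. In B limma gave an unadjusted p under 0.05 for 14 of the 31 genes and for 4209 of all 14010, and by adjusted p alone, without the size limit, 3 genes were higher and 7 lower, where 8.43% and 8.79% of all genes were. The members with the largest differences were Epas1 and Ldha, given above, Vegfa at -0.81 ± 0.24 (adjusted p = 0.0393), and Egln3 and Ldhb at -0.75 and 0.75. Ldhb, the subunit that favours making pyruvate from lactate, read 11.83 and 11.92 in B, against 11.16 and 11.10 in Parental. In A an unadjusted p under 0.05 was found for 1 of the 31 genes, Pdk1, and for 928 of all genes. Leaving out single arrays gave 0 to 2 calls in B: 1 without Parental day 1 replicate 1, 1 without Parental day 1 replicate 2, and 2 without B day 1 replicate 1.

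**Figure D3:**
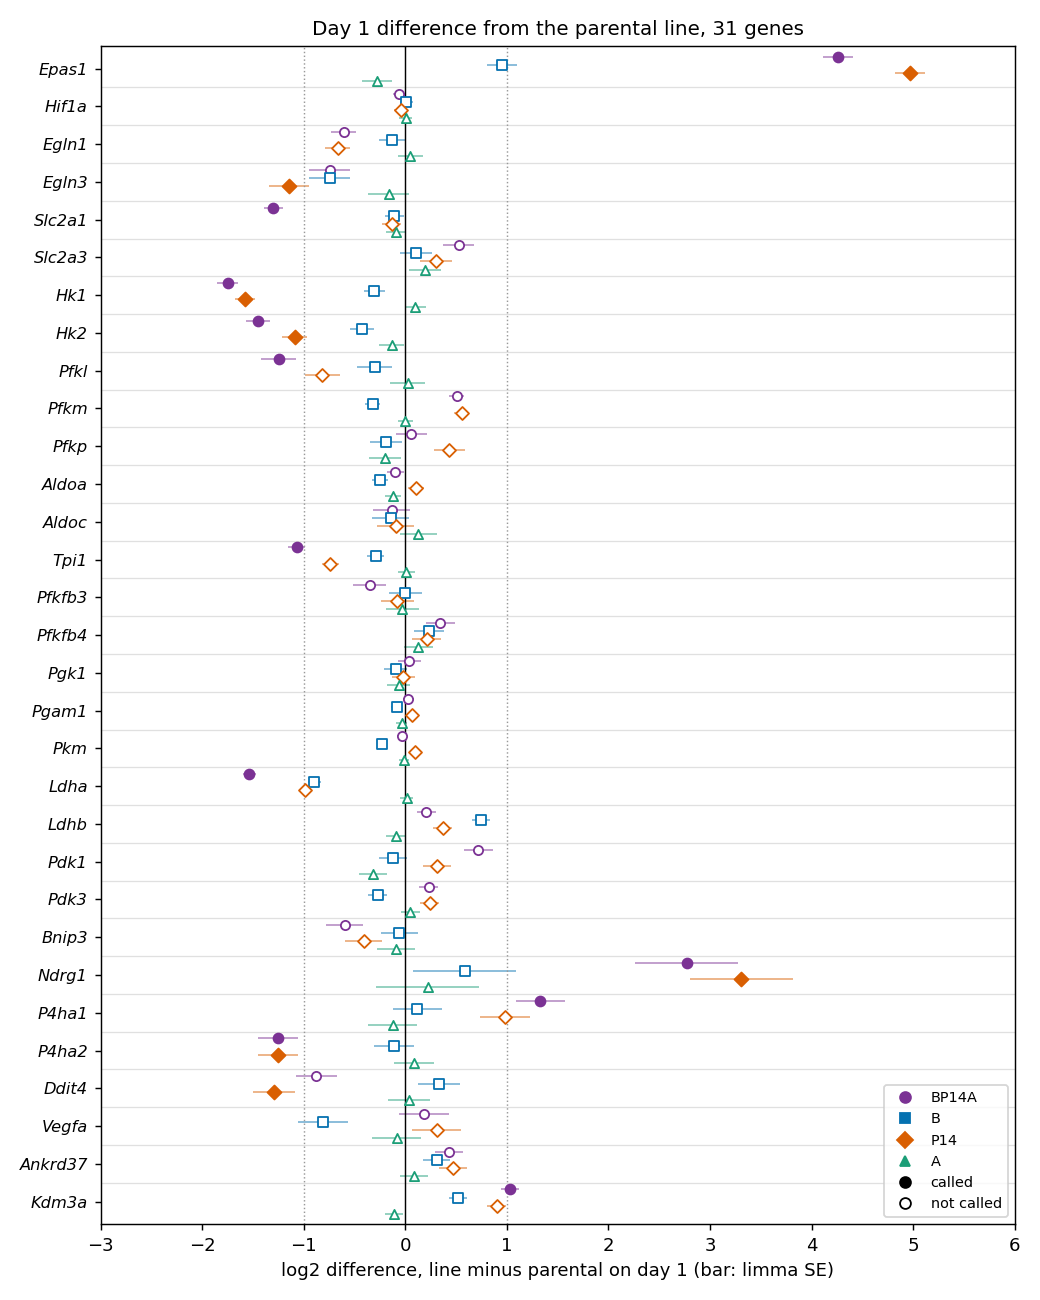
Log2 difference of each transgene line minus the Parental line on day 1 for the 31 tested genes, with bars of 1 limma SE; filled points are called, and dotted lines mark -1 and 1. BP14A has 11 filled points and P14 has 7, with Epas1 at 4.26 and 4.96, while B and A have none.

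In EpiLCs, before doxycycline, 0 of the 31 genes were called in any transgene line against Parental, where 0.0143% of all genes were called in BP14A, 0.0785% in B, 0.0357% in P14 and 0.0286% in A. By limma's unadjusted p under 0.05, 5, 10, 2 and 6 of the 31 genes differed in BP14A, B, P14 and A, and 1046, 1516, 819 and 1079 of all 14010 genes. The difference from Parental was below 0 for 24, 26, 16 and 25 of the 31 genes in these lines. Its median over the 31 was -0.13, -0.14, -0.005 and -0.16, against -0.01, 0.02, -0.015 and -0.015 over all genes. These EpiLC differences enter the comparison of stage changes with Parental below. The largest sizes were those of Ndrg1, at -1.78 ± 0.51 in BP14A (adjusted p = 0.489), -1.76 ± 0.51 in B (adjusted p = 0.224) and -1.25 ± 0.51 in A (adjusted p = 0.585), and rest on the Parental EpiLC arrays of 7.02 and 5.71. A missed threshold with 2 arrays per group does not show that the lines were alike.

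The change on day 1 was also compared between lines, as the line's stage difference minus that of Parental. In BP14A 5 genes were higher and 6 lower in this comparison (3.02% and 3.93% of all genes), and in P14 2 were higher and 5 lower (1.94% and 2.61%). Epas1 gave 4.60 ± 0.21 in BP14A (adjusted p = 6.52e-08) and 4.65 ± 0.21 in P14 (adjusted p = 9.6e-08). Hk1 gave -1.59 ± 0.14 in BP14A (adjusted p = 9.91e-06) and -1.55 ± 0.14 in P14 (adjusted p = 2.14e-05). Some other calls lay at the size limit. In P14 Ldha, at -1.0, lost its call without replicate 1 of P14 day 1 or Parental EpiLC, or replicate 2 of P14 EpiLC or Parental day 1. Egln3, at -1.01, lost it without either day-1 array of P14 or Parental, or without replicate 2 of P14 EpiLC or Parental EpiLC. Egln3 also lost it with no filter, with the mean of its probe sets, and in a test against a log2 difference of 0.5. In BP14A Tpi1, at -1.03, lost its call without replicate 2 of BP14A day 1 or BP14A EpiLC, or replicate 1 of Parental day 1 or Parental EpiLC. Quantile normalization also removed the calls of Tpi1 in BP14A and of Ldha in P14. Pdk1 in BP14A, at 1.07, lost its call without Parental day 1 replicate 2 or Parental EpiLC replicate 1. With the mean of all probe sets, Pfkl in BP14A (-1.19 ± 0.24, adjusted p = 0.00423) was at -0.71 and Pdk1 at 0.97, both without a call, and P4ha1 (1.65 ± 0.35, adjusted p = 0.00533) was at 1.08. In B Epas1 was called alone, at 1.11 ± 0.21 (adjusted p = 0.00776; 1.33% of all genes higher and 1.06% lower), and the call was lost without B EpiLC replicate 1 or Parental day 1 replicate 2. The second Epas1 probe set gave the opposite sign, at -1.09. It was below the filter level on day 1 in both lines, so it cannot decide the sign. By adjusted p alone 5 genes differed in B and 11 in P14 (8.66% and 12.1% of all genes). In A 0 of 31 genes and 0% of all genes were called, with 3 and 654 at an unadjusted limma p under 0.05.

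Set against each other on day 1, BP14A and P14 differed in 1 gene. Slc2a1 was lower in BP14A, at -1.16 ± 0.09 (adjusted p = 2.81e-05), where 0.557% of all genes were lower and 0.493% higher, but the call was lost when the 4 arrays of this contrast were fitted alone. Epas1 differed by -0.71 ± 0.15 (adjusted p = 0.0142), Ldha by -0.55 ± 0.06 (adjusted p = 0.000438) and Hk1 by -0.17 ± 0.10 (adjusted p = 0.416). BP14A against B gave 3 higher and 5 lower genes (2.51% and 3.96% of all genes). Epas1 was higher by 3.31 ± 0.15 (adjusted p = 1.82e-08), with Ndrg1 at 2.18 and P4ha1 at 1.21, and Hk1 was lower, at -1.44 ± 0.10 (adjusted p = 5.68e-07), with Ddit4 at -1.20, Slc2a1 at -1.19, P4ha2 at -1.14 and Hk2 at -1.02. The call for Hk2 was lost without BP14A day 1 replicate 2 or B day 1 replicate 2. It was also lost with each array centred on its median, and when the arrays of this contrast were fitted alone. The call for P4ha1 was lost with the mean of its probe sets, at 0.78. P14 against B gave 3 higher and 3 lower genes (2.51% and 4.04% of all genes): Epas1 at 4.01, Ndrg1 at 2.73 and Vegfa at 1.12, and Ddit4 at -1.62, Hk1 at -1.27 and P4ha2 at -1.15. By adjusted p alone 4 genes differed for BP14A against P14, 20 for BP14A against B and 20 for P14 against B (6.17%, 28.1% and 29.2% of all genes). For P14 against B, Vegfa lost its call without B day 1 replicate 2, and with the arrays of that contrast alone. Its second probe set gave -0.15, with a mean of 0.49 for both and no call.

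Other genes of the pathway came from 4 lists. Of 11 tested partners and regulators of the factors, 0 were called by limma against Parental on day 1 in any line, and 5, 5, 3 and 0 had an unadjusted p under 0.05 in BP14A, B, P14 and A, as did 5135, 4209, 4785 and 928 of all 14010 genes. On day 1 against EpiLCs Arnt2, a partner of the alpha subunits, rose in B (1.46), A (1.08) and Parental (1.09), and Hif3a, a further alpha subunit, fell in P14 (-1.40) and Parental (-1.05). Between transgene lines on day 1, Arnt2 was called lower in BP14A and P14 than in B (-1.24 and -1.19). The stage change of Arnt2 was also called lower in BP14A than in Parental (-1.08). Of 38 further known targets of the factors, 1 was higher and 1 lower than in Parental in BP14A (2.63% each, against 2.78% and 3.85% of all genes), so their share was not above that of all genes. In P14 3 were higher and 2 lower (7.89% and 5.26%, against 2.18% and 3.2%), in B 0 and 2 (0% and 5.26%, against 1.4% and 1.2%), and in A 0 in either direction. Car12, a carbonic anhydrase, was higher by 3.48 ± 0.23 in BP14A (adjusted p = 3.77e-07) and by 1.77 ± 0.23 in P14 (adjusted p = 0.000148), and Vldlr, a lipoprotein receptor, was lower, at -1.38 and -1.37. P14 also had higher Bhlhe40 (1.06) and Angptl4 (1.15) and lower Stc2 (-1.0), and B had lower Ak4 (-1.84) and Stc2 (-1.25). On day 1 against EpiLCs, 4 of the 38 rose and 4 fell in BP14A (10.5% each, against 5.73% and 4.88% of all genes), 1 and 4 in B (2.63% and 10.5%, against 5.78% and 3.94%), 3 and 4 in P14 (7.89% and 10.5%, against 4.33% and 3.73%), 0 and 6 in A (0% and 15.8%, against 3.58% and 2.55%) and 0 and 5 in Parental (0% and 13.2%, against 3.97% and 2.62%). Ak4, an adenylate kinase of mitochondria, fell in every line, with differences from -3.41 in B to -1.52 in A. Car12 rose in BP14A (3.16) and P14 (1.15) and fell in B (-1.06) and A (-1.14), and the repressor Bhlhe40 rose in BP14A (1.64) and P14 (1.58). The other falls in Parental were those of Adm (-1.38), Ppfia4 (-1.11), Mxi1 (-1.09) and Angptl4 (-1.0). The median difference of the 38 lay between -0.18 in P14 and Parental and -0.07 in B, against 0.02 to 0.06 over all genes.

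Some arrays moved many of these genes together. In EpiLCs of line A, 29 of the 31 genes were higher in replicate 2 than in replicate 1, with a median difference of 0.32 and up to 1.78 in Ndrg1, where 57.9% of all genes were higher. In the other 9 groups 8 to 24 of the 31 were higher in replicate 2. In BP14A day-1 aggregates it was 8 of 31, with a median of -0.08. Without A EpiLC replicate 2, Pfkl and Pfkfb3 lost their calls in A, as given above. The SD of the duplicates over the 31 genes had a median of 0.23 in EpiLCs of A and 0.05 to 0.11 in the other groups.

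**Figure D4:**
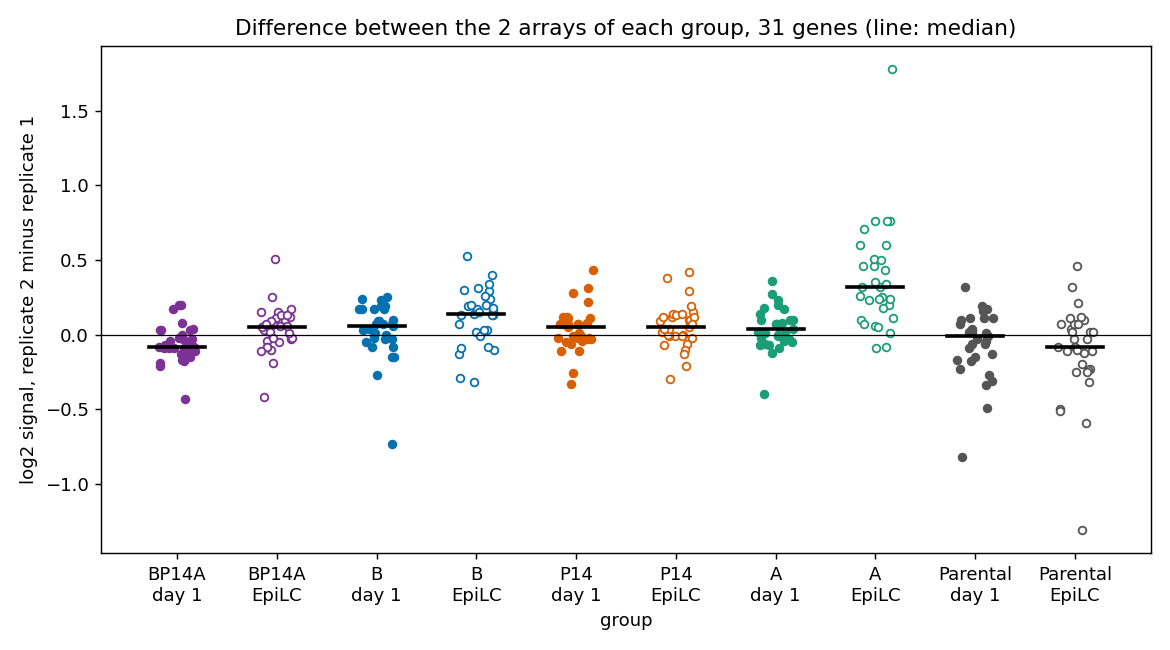
Replicate 2 minus replicate 1 (log2) for each of the 31 genes in the 10 groups; the line is the median. The points of A EpiLC lie almost all above 0, with a median of 0.32, and the medians of the other groups lie between -0.08 and 0.14.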

How the data were processed

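RNA was measured on 20 arrays, 2 in each of 10 groups. The table the authors deposited holds log2 values per probe set. Base 2 was inferred from the range, 0 to 13.83. No source used here states how the arrays were normalized. Per the labels, RNA was purified on columns and labelled with biotin by the maker's one-cycle protocol. The median of an array was 4.60 to 4.86, and each array listed 639 to 810 values at 0. The values were used unchanged. The platform annotation named 1 gene for 34945 probe sets, several for 932 and none for 9160, and 64 control probe sets were left out of the tests. Entrez identifiers of 34741 probe sets matched RefSeq's table for GRCm38.p6. Genes were kept where the highest group mean reached the 40th percentile of all values, and each was read through its probe set with the highest mean. A model with 10 group means (limma 3.58.1, R 4.3.3, 10 residual and 1.79 prior degrees of freedom) gave two-sided p values, adjusted by Benjamini-Hochberg over 14010 genes. Tables were made with Python 3.11.15 and pandas 2.3.3. On simulated data of 14010 genes, 86.2% of genes changed by 1.5 and 97.5% of those changed by 3 were called for P14 against Parental on day 1. Among the genes left unchanged there were 2 false calls. For the difference in stage change of A against Parental these shares were 70% and 97.5%, with 6 false calls. Each simulation changed 80 genes by 1.5, 80 by 2 and 40 by 3 in size, and no others. Noise was normal and independent between genes and arrays, with the same mean in all groups for unchanged genes. The real arrays differ from this setting, so the shares may not hold for them.

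The 36 genes, the lists, the tests and the naming rule were chosen with earlier results of these data known. Arrays are given for the called genes with the largest sizes, and of the other lists only called genes are named, not all of them. Alternatives were median centring, quantile normalization, no filter, the mean of all probe sets, limma with a trend, treat against a log2 difference of 0.5, no size limit, fits on the arrays of a contrast alone, a replicate block, and leaving out each array.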

Additional observations from a re-analysis of the deposited data

Results flagged for a closer look

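The change on day 1 differed between a transgene line and the Parental line, by limma's test of the difference itself (adjusted p under 0.05, size of at least 1 on the log2 scale), for 11 genes in BP14A, 7 in P14 and 1 in B. In BP14A the higher values were Epas1 at 4.60, Ndrg1 at 4.54, P4ha1 at 1.65, Kdm3a at 1.16 and Pdk1 at 1.07. The lower ones were Ldha at -1.60, Hk1 at -1.59, Hk2 at -1.45, Pfkl at -1.19, Slc2a1 at -1.19 and Tpi1 at -1.03. In P14 the higher values were Epas1 at 4.65 and Ndrg1 at 3.77, and the lower ones Hk1 at -1.55, Ddit4 at -1.39, Hk2 at -1.18, Egln3 at -1.01 and Ldha at -1.0. In B the only gene was Epas1 at 1.11, whose second probe set gave -1.09 but was below the filter level on day 1 in both lines. All of these comparisons use the same 4 Parental arrays. For Ndrg1 in BP14A the 4.54 combines a day-1 difference of 2.77 from Parental with a difference of -1.78 in EpiLCs, which was not called. In EpiLCs BP14A read 4.80 and 4.38, against a filter level of 3.95, and the Parental arrays lay apart, at 7.02 and 5.71. In a group of 2 no array can be tested as an outlier.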

How the results depend on the processing

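Of 112 calls on single genes, 79 held in every alternative run, 33 were lost in at least 1 and 0 changed sign. The mean of all probe sets of a gene lost 18 calls, treat lost 17, fits on the arrays of a contrast alone lost 5, quantile normalization 2, no filter 2 and median centring 1, and leaving out single arrays lost 19 in all. With no size limit the calls on day 1 against EpiLCs were 28 in BP14A, 25 in B, 28 in P14, 22 in A and 25 in Parental. On day 1 against Parental they were 19 in BP14A, 10 in B and 16 in P14, and without single arrays 0 to 2 in B. Between lines on day 1 they were 4 for BP14A against P14, 20 for BP14A against B and 20 for P14 against B. For the difference in stage change from Parental they were 5 in B and 11 in P14. BP14A against B gave 5 calls with treat, and BP14A against P14 gave 0 with its own arrays alone. The 1 call in the stage change of B against Parental became 2 with median centring, 2 with a trend, 0 with the mean of probe sets, 0 with treat, 0 with its own arrays alone and 0 to 2 without single arrays. The cause of these shifts was not tested, save that dropping the size limit admits smaller differences. The labels do not tie replicate numbers to a shared day, and deviations of same-numbered arrays correlated at -0.065 to 0.196 over 45 pairs of groups, with 6 over 0.1, so the numbers were not taken as pairs. With a replicate block the calls on day 1 against Parental were 11 in BP14A, 0 in B, 7 in P14 and 0 in A, and those of the stage change in P14 against Parental 8, and no count moved by more than 1.5 times. Leaving out 1 array assumes that the lone array left varies as those of other groups do. With 2 arrays per group and 3' probes, values near 3.95 are close to background, so that differences of low genes are approximate.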

Other observations

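Of 17 tested genes of the pentose phosphate pathway, of pyruvate use and of gluconeogenesis, 3 were called higher and 0 lower on day 1 in BP14A against Parental (17.6% and 0%, against 2.78% and 3.85% of all genes). All 3 belong to pyruvate use or gluconeogenesis. Pdk4, a pyruvate dehydrogenase kinase, was at 2.19 ± 0.44 (limma SE, adjusted p = 0.00268). Fbp1, an enzyme of gluconeogenesis, was at 1.38 ± 0.13 (adjusted p = 6.44e-06), and Mpc1, a subunit of the mitochondrial pyruvate carrier, at 1.03 ± 0.09 (adjusted p = 4.73e-06). In P14 1 was higher and 0 lower (5.88% and 0%, against 2.18% and 3.2% of all genes): Pdk4, by 1.71 ± 0.44 (adjusted p = 0.0146). In B 0 were higher and 1 lower (0% and 5.88%, against 1.4% and 1.2%): Pck2, the mitochondrial enzyme that makes phosphoenolpyruvate, at -1.18 ± 0.15 (adjusted p = 0.000269). The median of the 17 was 0.16 in BP14A, -0.07 in B and -0.02 in P14.

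Of 17 further genes of glycolysis, 1 was higher and 2 were lower in BP14A (5.88% and 11.8%, against 2.78% and 3.85% of all genes): Pfkfb2 at 1.75 ± 0.33 (adjusted p = 0.00149), the lactate dehydrogenase Ldhc at -1.57 ± 0.16 (adjusted p = 1.06e-05) and the lactate and pyruvate carrier Slc16a7 at -2.37 ± 0.61 (adjusted p = 0.0118). In P14 0 were higher and 2 lower (0% and 11.8%, against 2.18% and 3.2%), Ldhc at -1.04 and Slc16a7 at -2.10.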
